A study of Homo sapiens with 6 samples.

Results

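The miR-200 family and miR-205 are microRNAs (miRs) of epithelial cells. Their 6 mature guide strands, hsa-miR-141-3p, hsa-miR-200a-3p, hsa-miR-200b-3p, hsa-miR-200c-3p, hsa-miR-429 and hsa-miR-205-5p, were picked by name from the 2588 miR names of a count table, and all 6 are listed there. Small RNA was sequenced from HEK293T, a human embryonic kidney cell line that carries the SV40 large T antigen. In 3 libraries RPL24, a protein of the large ribosomal subunit, had been knocked down (RPL24 KD) with siPOOLs, mixtures of many siRNAs against one transcript, and 3 libraries came from cells given control siPOOLs without a target (NC), both at 50 nM. Cells of both groups were collected 72 h after the siPOOLs, which the labels write as day 72, and the labels describe for both groups a plasmid encoding miR-608 given at 48 h, 24 h before harvest. Whether the sequenced cells received that plasmid is not clear from the sources used here, and miR-608 had 0 reads in all 6 libraries. The labels do not say whether the 3 libraries of a group came from separate cultures, so p-values measure only the spread between these libraries, which may be technical.

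A mature miR guides Argonaute proteins to mRNAs that pair with its seed, bases 2 to 8 from its 5′ end, and thereby lowers the output of those mRNAs. MiRs of the miR-200 family repress ZEB1 and ZEB2, transcription factors that switch off E-cadherin, and the ZEB factors in turn repress the miR-200 genes, so that the family marks the epithelial side of the epithelial-to-mesenchymal transition. MiR-205 also acts on ZEB1 and ZEB2 and is best known from stratified epithelia such as skin and from breast and prostate epithelium.

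The 6 mature sequences are shown because the family divides by its seed, which sets the targets, while its members resemble each other so closely that the assignment of reads matters. They were taken from RefSeq (GRCh38.p14), are written as RNA, 5′ to 3′, and carry the seed in capitals.
hsa-miR-200b-3p: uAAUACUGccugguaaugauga
hsa-miR-200c-3p: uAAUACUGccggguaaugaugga
hsa-miR-429: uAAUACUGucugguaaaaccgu
hsa-miR-200a-3p: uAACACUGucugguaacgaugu
hsa-miR-141-3p: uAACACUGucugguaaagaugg
hsa-miR-205-5p: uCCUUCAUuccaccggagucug

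miR-200b-3p, miR-200c-3p and miR-429 share the seed AAUACUG, and miR-200a-3p and miR-141-3p the seed AACACUG. Of the 2281 names in the table that matched a RefSeq sequence, no others carry either seed. The seeds differ by a single base, written C4U from miR-141-3p to miR-200b-3p, with positions counted from 1 at the 5′ end. The seed of miR-205-5p, CCUUCAU, occurs in that miR alone. Over their first 22 bases, miR-200b-3p and miR-200c-3p are identical at 20 positions and differ by U11G and A22G, and miR-200c-3p is 1 base longer. MiR-141-3p and miR-200a-3p are likewise identical at 20 of 22 positions and differ by A17C and G22U. How the alignment treated reads that fit both members of such a pair is not given in the sources used here. Reads of these near copies could be counted under either name or under both. Outside the family, miR-365a-3p and miR-365b-3p had equal mean levels, so the same reads may stand under both of those names.

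The seed groups and the genomic clusters cross each other. In GENCODE 29 (GRCh38) the hairpin genes MIR200B (chr1:1167104-1167198), MIR200A (chr1:1167863-1167952) and MIR429 (chr1:1169005-1169087) lie within 1984 bases on the plus strand of chromosome 1, and no annotated transcript of another gene overlaps them. MIR200C (chr12:6963699-6963766) and MIR141 (chr12:6964097-6964191) lie within 493 bases on the plus strand of chromosome 12, in an intron of the 1 transcript of the long non-coding RNA gene MIR200CHG that spans them. MIR205 (chr1:209432133-209432242, plus strand) overlaps an exon in 7 of the 8 transcripts of MIR205HG that span it and lies in an intron of the other.

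The libraries held from 398721 to 611745 counts. In both groups the 6 miRs were scarce. Together they took from 39 to 64 reads of an RPL24 KD library and from 40 to 65 of an NC library, or from 97.4 to 117 and from 99.7 to 123 CPM (reads per 1e6 of the TMM-scaled library total). Of the 6, 2 passed the filter on low counts and were tested, 3 had reads but did not pass, and 1 had none. Libraries 1 and 2 of each group are numbered as in the labels, and the last library of each group, whose number stands in no label, is called unnumbered.

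miR-200c-3p, from the chromosome 12 cluster, was the most abundant. It had 29, 22 and 32 reads in NC replicate 1, NC replicate 2 and the unnumbered NC library, and 42, 42 and 25 reads in the corresponding RPL24 KD libraries. These correspond to 50.6, 54.9 and 60.5 CPM in NC and to 76.6, 69.7 and 62.5 CPM after RPL24 KD. The lowest RPL24 KD library thus lay just above the highest NC library with TMM scaling, and the groups overlapped when the counts were divided by the plain library totals instead. NC had a mean of 55.3 ± 4.97 CPM (SD, n = 3) and RPL24 KD one of 69.6 ± 7.07 CPM (SD, n = 3).

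miR-200b-3p, which has the same seed but comes from the chromosome 1 cluster, lay on the other side. Its reads numbered 20, 16 and 24 in NC and 18, 13 and 10 after RPL24 KD, in the same order of libraries. The NC libraries had 34.9, 39.9 and 45.4 CPM and the RPL24 KD libraries 32.8, 21.6 and 25.0 CPM. All 3 RPL24 KD libraries lay below the NC libraries, with TMM and with plain totals, though RPL24 KD replicate 1 was close to NC replicate 1. The mean of NC was 40.1 ± 5.25 CPM (SD, n = 3), that of RPL24 KD 26.5 ± 5.77 CPM (SD, n = 3).

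**Figure D1:**
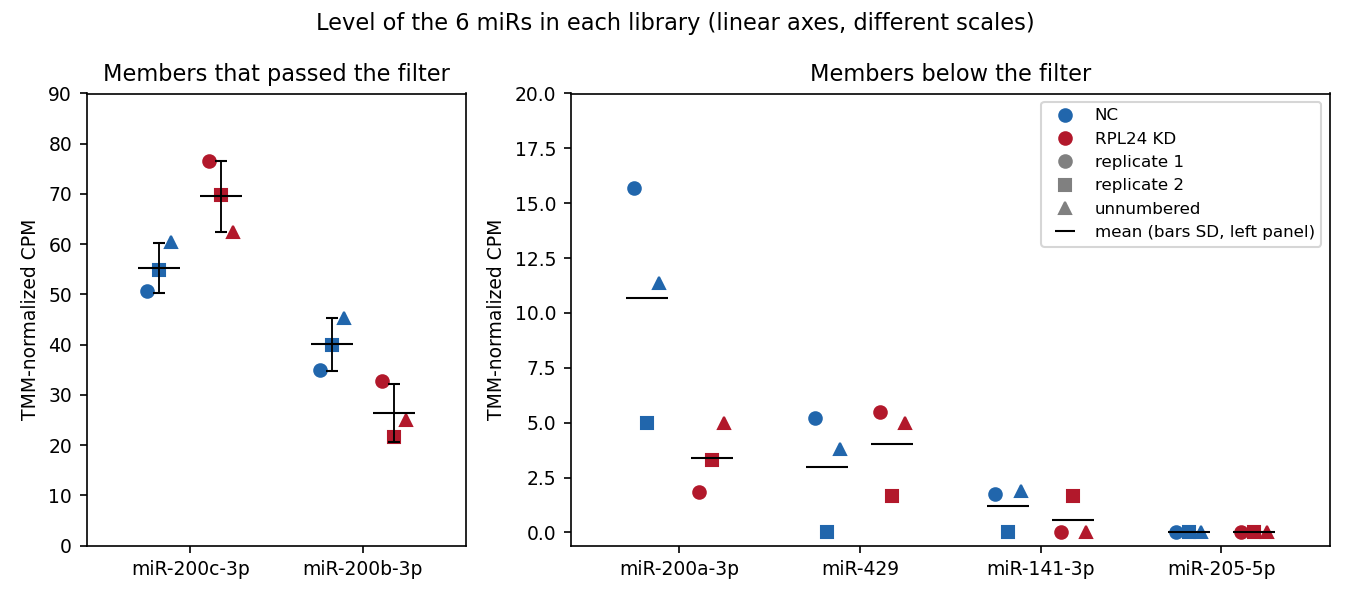
TMM-normalized CPM of the 6 miRs in each of the 3 NC (blue) and 3 RPL24 KD (red) libraries, with a dash at the group mean and, in the left panel, bars of 1 SD; the axes are linear and differ in scale. miR-200c-3p lies between 50.6 and 60.5 CPM in NC and between 62.5 and 76.6 after RPL24 KD (overlapping with plain library totals), miR-200b-3p between 34.9 and 45.4 in NC and between 21.6 and 32.8 after RPL24 KD, and miR-205-5p at 0 throughout.

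Neither of the tested members was differentially expressed (DE) in edgeR's quasi-likelihood test, with p-values adjusted over the 360 miRs tested (Benjamini-Hochberg). For miR-200c-3p the log2 fold change (RPL24 KD over NC) was 0.34 (standard error 0.214, 95% interval -0.12 to 0.80, adjusted p = 0.387, edgeR). For miR-200b-3p it was -0.59 (standard error 0.289, 95% interval -1.22 to 0.03, adjusted p = 0.249, edgeR). In the same test 21 of the 360 miRs were DE (5.83%), 11 higher and 10 lower, and with total counts in place of TMM 32 were DE, 11 higher and 21 lower. Neither member reached an unadjusted p under 0.05, which 78 of the 360 did, and DESeq2 called 0 members as well. The interval of miR-200c-3p reaches a log2 fold change of 0.80 and that of miR-200b-3p one of -1.22, so neither test excludes changes up to these bounds. In bulk RNA, a lower level in every cell cannot be told apart from fewer cells that express the miR.

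Groups without overlap were found in both tested members, 1 in each direction, and in 27.5% of the 360 miRs, with all RPL24 KD libraries above NC in 14.7% and below in 12.8%. The median log2 fold change of all tested miRs was -0.01. Single libraries are imprecise at these counts. The 10 reads of miR-200b-3p in the unnumbered RPL24 KD library correspond, over the plain library total, to 24.6 CPM with an exact (Clopper-Pearson) 95% interval from 11.8 to 45.2, and the 24 reads in the unnumbered NC library to 46.8 with an interval from 30.0 to 69.6. Only counting error is in these intervals, and they do not allow for PCR copies of one molecule, which are read as several. With the reads of a group summed, the ratio of RPL24 KD to NC per sequenced read was 0.640 for miR-200b-3p (exact 95% counting interval 0.419 to 0.968) and 1.23 for miR-200c-3p (0.916 to 1.66), and these intervals leave out the spread between libraries.

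**Figure D2:**
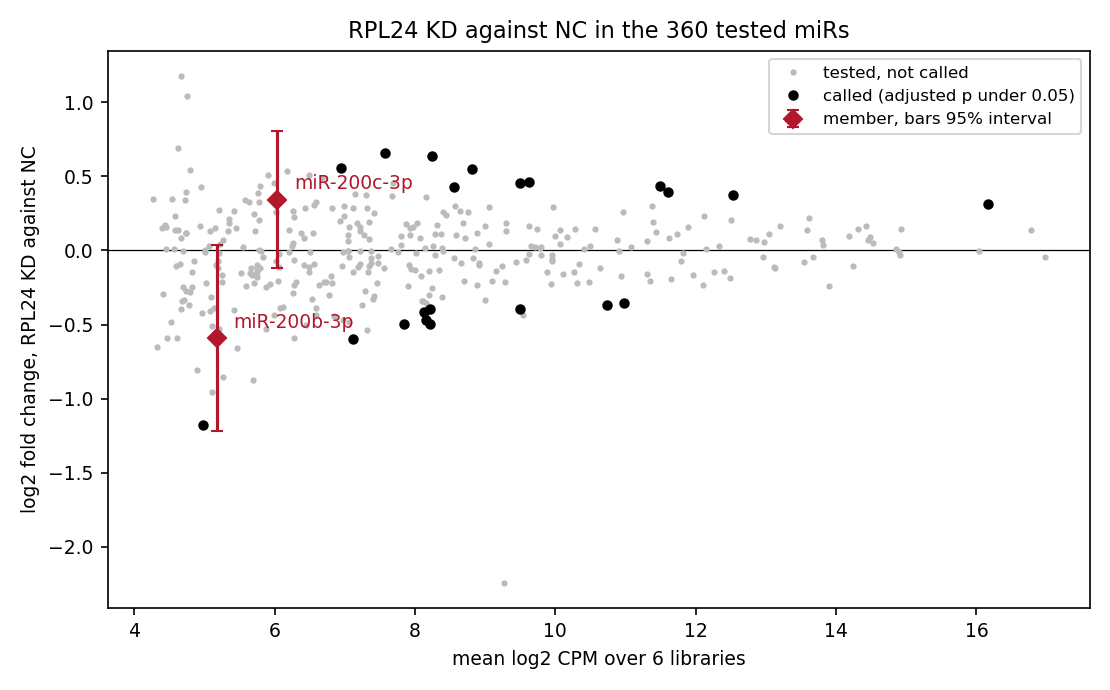
Log2 fold change, RPL24 KD over NC (y), against the mean log2 CPM over the 6 libraries (x) for the 360 tested miRs, with the 21 DE miRs in black and the 2 tested members in red with 95% intervals. Both members lie at low abundance, on opposite sides of 0, and both intervals include 0; the fold change of miR-200c-3p is 0.34 and that of miR-200b-3p -0.59.

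The remaining members stayed at a handful of reads. miR-200a-3p, the neighbour of miR-200b-3p on chromosome 1, had 9, 2 and 6 reads in NC and 1, 2 and 2 after RPL24 KD. Those are 15.7, 4.99 and 11.3 CPM in NC and 1.82, 3.32 and 5.00 CPM after RPL24 KD, so 2 of the NC libraries were higher, while NC replicate 2 and the unnumbered RPL24 KD library were nearly level. With plain library totals all 3 RPL24 KD libraries lay below NC, by a margin of 4.92 against 5.02 CPM. Summed over a group there were 5 reads after RPL24 KD and 17 in NC, a ratio of 0.275 per sequenced read with an exact 95% counting interval from 0.0795 to 0.778 that leaves out the spread between libraries. Without the filter on low counts, edgeR gave miR-200a-3p a log2 fold change of -1.71 (95% interval -3.13 to -0.29, unadjusted p = 0.0180, adjusted p = 0.319). Only 2 of the 6 libraries, both of NC, reached 3 reads, so every RPL24 KD count behind this value lies under the floor given below.

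miR-429, the third member of the chromosome 1 cluster, had 3, 0 and 2 reads in NC and 3, 1 and 2 after RPL24 KD. No library exceeded 3 reads, the floor used here, which corresponds to between 4.98 and 7.50 CPM. miR-141-3p, the partner of miR-200c-3p on chromosome 12, had 1 read in each of 3 libraries, NC replicate 1, the unnumbered NC library and RPL24 KD replicate 2, and 0 in the other 3. For these miRs no fold change can be given. miR-205-5p had 0 reads in all 6 libraries, which allows a level of up to 0.982 CPM over the 6 libraries together (plain totals), and its other strand, miR-205-3p, had 0 as well.

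The order of the levels was the same in both groups for the leading miRs. In each of the 6 libraries miR-200c-3p was above miR-200b-3p, and miR-200b-3p above miR-200a-3p. miR-200a-3p and miR-429 overlapped in both groups, and the levels of miR-429, miR-141-3p and miR-205-5p were too near 0 to be ordered. Comparisons between different miRs are approximate, because adapter ligation captures some sequences better than others.

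Hardly any read came from the opposite strands of these hairpins, which are usually degraded when the guide strand is loaded. Of the 5 listed opposite strands, miR-141-5p, miR-200b-5p, miR-200c-5p and miR-205-3p had 0 reads in every library. miR-200a-5p had 2 reads in NC replicate 2, 2 in the unnumbered NC library and 0 in the others, against 22 reads of miR-200a-3p over the 6 libraries. No opposite strand of miR-429 is listed. At 192 reads of miR-200c-3p and 101 of miR-200b-3p against 0 of their opposite strands, the 3p strand was the one detected.

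Set against the 1205 miRs with at least 1 read, 4 of the 5 detected members lay above the median and miR-141-3p lay below it. By mean CPM over the 6 libraries, miR-200c-3p ranked number 254 (62.5 CPM), miR-200b-3p 307 (33.3 CPM), miR-200a-3p 489 (7.03 CPM), miR-429 597 (3.52 CPM) and miR-141-3p 849 (0.882 CPM). The median over all 1205 was 3.37 CPM and that over the 360 tested miRs 160 CPM, so both tested members were among the scarcer of the tested miRs. The 3 tested miRs whose log2 CPM over the 6 libraries was closest to that of miR-200c-3p were miR-449c-5p, miR-3173-5p and miR-548am-3p, with root mean square differences of 0.198, 0.205 and 0.233. These had log2 fold changes of 0.26, 0.35 and 0.45, and none was DE (adjusted p = 0.547, 0.433 and 0.249, edgeR). Their closeness was measured over both groups, so fold changes near that of miR-200c-3p follow from the choice. The tested miRs just above and below miR-200c-3p in mean CPM, miR-1306-5p and miR-196a-3p, had log2 fold changes of -0.03 and -0.07 (adjusted p = 0.981 and 0.909, edgeR).

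**Figure D3:**
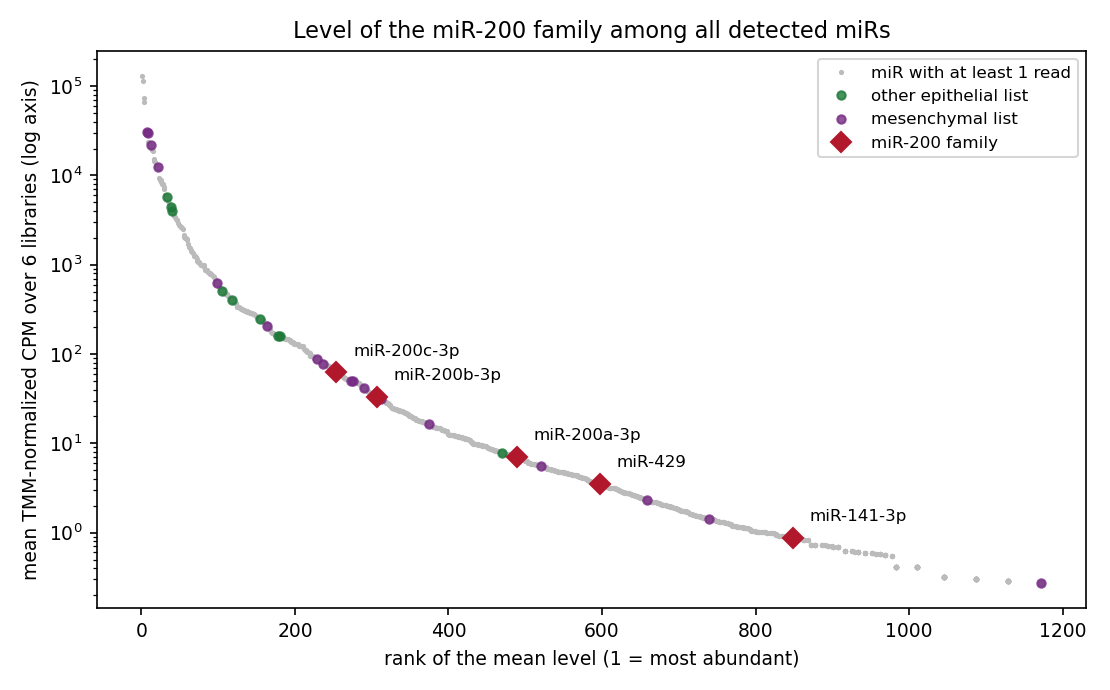
Mean TMM-normalized CPM over the 6 libraries (y, log axis) against rank (x) for the 1205 miRs with at least 1 read, with the 5 detected members of the miR-200 family in red, other epithelial miRs in green and mesenchymal miRs in purple; miR-205-5p, with 0 reads, is not drawn. The red points run from rank 254 to rank 849, while miR-182-5p and miR-221-3p of the other lists have 5763 and 30602 CPM.

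Several other miRs known from epithelia were far more abundant, and miR-203a-3p and miR-203b-3p were as scarce as the low members of the family. Of a list of 10, which holds kidney and gut miRs such as miR-192-5p, the secretory-cell miR-375 and the miR-183 cluster of sensory epithelia, 8 were tested and 0 were DE by edgeR. The most abundant were miR-182-5p (5763 CPM), miR-183-5p (4417 CPM) and miR-192-5p (4004 CPM). miR-203a-3p, an epidermal miR, had from 2 to 7 reads in a library, and miR-203b-3p had 0. The log2 fold changes were below 0 in 7 of the 8, with a median of -0.16, beside 189 of the 360 and -0.01 over all tested miRs. At an unadjusted p under 0.05 stood 3 of them, all 3 with RPL24 KD below NC in every library, beside 78 of the 360 at that p and 12.8% with every RPL24 KD library below NC. They were miR-182-5p, at a log2 value of -0.19 (adjusted p = 0.0868, edgeR), miR-183-5p with -0.23 (adjusted p = 0.0579, edgeR) and miR-96-5p, named after its values were seen, with -0.33 (adjusted p = 0.0900, edgeR). These 3 come from a single cluster. All 3 were DE with total counts in place of TMM (adjusted p = 0.0308, 0.0229 and 0.0444, edgeR). That scaling also moved the median log2 fold change of all tested miRs down, to -0.055. Without the unnumbered NC library, miR-183-5p (adjusted p = 0.0148, edgeR), miR-96-5p and miR-192-5p (adjusted p = 0.0297 for each, edgeR) were DE. The 4 numbered libraries alone called miR-183-5p, miR-96-5p and miR-192-5p (adjusted p = 0.0313, 0.0300 and 0.00929, edgeR). With the replicate number as a block in those 4 libraries, miR-182-5p (adjusted p = 0.0366), miR-183-5p (0.00285), miR-96-5p (0.00398) and miR-192-5p (0.000282) were all called. Robust edgeR called miR-183-5p alone of these 4 miRs (adjusted p = 0.0262). None of them was called by DESeq2 on the tested miRs (adjusted p from 0.0718 to 0.389). DESeq2 on every miR with a read called none of them here (adjusted p from 0.0602 for miR-183-5p to 0.401 for miR-192-5p). The same held for edgeR without a filter (adjusted p from 0.174 to 0.646). Leaving out any 1 library but the unnumbered NC one gave no call either, with adjusted p up to 0.367, 0.282, 0.344 and 0.620 in the order above (edgeR). The study's own DESeq2 list of DE miRs does hold miR-183-5p, as lower after RPL24 KD, but not miR-182-5p, miR-96-5p or miR-192-5p.

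Of 17 miRs associated with mesenchymal cells or with the epithelial-to-mesenchymal transition, 12 were tested and 0 were DE by edgeR. There were 6 log2 fold changes above and 6 below 0, with a median of 0.0001. Among those below 0, miR-199a-3p (-0.12) and miR-199b-3p (-0.10) had equal counts in every library but the unnumbered NC one (29 and 28 reads). They may thus be largely the same reads under both names, which the counts over this list and its summed level include for each. At an unadjusted p under 0.05 were 5 of the 12, beside 78 of all 360 tested miRs. Groups did not overlap in 6 of the 12, beside 27.5% of the 360. The most abundant were miR-221-3p (30602 CPM), miR-222-3p (29725 CPM) and miR-10b-5p (21951 CPM). miR-221-3p and miR-222-3p, which are made from one cluster and promote proliferation by repressing p27, had log2 fold changes of -0.01 and 0.01, whose signs turned in several alternative fits (miR-222-3p was at -0.03 with total counts). That of miR-10b-5p, a miR of the HOX clusters tied to cell migration, was 0.16 (adjusted p = 0.0564, edgeR), and without the unnumbered NC library it was DE (adjusted p = 0.0297, edgeR). DESeq2 on every miR with a read called miR-10b-5p too (log2 fold change 0.18, adjusted p = 0.0497), as did the replicate block (adjusted p = 0.0102, edgeR). It was not called by DESeq2 on the tested miRs (adjusted p = 0.0945) or with total counts (adjusted p = 0.163, edgeR). The study's own DESeq2 list of DE miRs holds miR-10b-5p, as higher after RPL24 KD. The summed level of the list was from 91618 to 96326 CPM in NC and from 95100 to 100710 CPM after RPL24 KD, against from 99.7 to 123 and from 97.4 to 117 CPM for the miR-200 family.

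HEK293T has no mature miR that defines it, so the label of the line was not checked here. Of 14 miRs that mark muscle, liver, blood or neural cells, miR-206, miR-208a-3p, miR-223-3p and miR-150-5p had 0 reads in all libraries, and 2 of the 14 were tested. Their summed level was from 5215 to 5832 CPM in NC and from 5397 to 5548 CPM after RPL24 KD, nearly all of it miR-9-5p (5145 CPM), a neural miR whose log2 fold change was 0.03, and -0.01 with total counts. The other neural miRs of the list were scarce and not tested. miR-124-3p had 1, 8 and 6 reads in NC and 0, 1 and 0 after RPL24 KD, and miR-219a-5p, named with miR-124-3p after the values were seen, had 1, 1 and 6 and then 1, 0 and 0. The muscle miR miR-1-3p (296 CPM) was DE and lower after RPL24 KD, by a log2 value of -0.40 (adjusted p = 0.0262, edgeR). This call was lost with DESeq2 (adjusted p = 0.142), with no filter and with the newer edgeR fit (adjusted p = 0.0557), and on leaving out any 1 library but the unnumbered NC one, where the adjusted p ranged up to 0.140, while without the latter it was 0.0167. A further muscle miR, miR-133a-3p, had 7 reads in each NC library and 2, 4 and 2 after RPL24 KD. Whether other cell types play a part in the values of the miR-200 family was not tested.

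Within the family, the reads of miR-200c-3p were set against those of miR-200b-3p. This comparison does not depend on the scaling of the libraries, and it was chosen after the values were seen, so it is given without a test. For each read of miR-200b-3p there were 1.45, 1.38 and 1.33 reads of miR-200c-3p in NC replicate 1, NC replicate 2 and the unnumbered NC library, and 2.33, 3.23 and 2.50 in the corresponding RPL24 KD libraries. The mean ratio of NC was 1.39 ± 0.0591 (SD, n = 3) and that of RPL24 KD 2.69 ± 0.477 (SD, n = 3), with no overlap between the groups. Among all 64620 pairs of tested miRs, the ratio did not overlap between the groups in 22.7%. Each library's ratio is imprecise: the exact 95% counting interval was from 1.31 to 4.31 in RPL24 KD replicate 1 and from 0.793 to 2.70 in NC replicate 1, and every interval of one group overlapped every interval of the other.

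The shares of the clusters rest mostly on the reads of the same miRs. The chromosome 12 miRs, miR-200c-3p and miR-141-3p, held 48.4%, 55.0% and 50.8% of the family's reads in the NC libraries and 65.6%, 72.9% and 64.1% after RPL24 KD. Their mean share of NC was 51.4% ± 3.35 (SD, n = 3) and that of RPL24 KD 67.5% ± 4.69 (SD, n = 3), and the chromosome 1 miRs held the rest. Grouped by seed instead, the groups overlapped. How often such sums or shares do not overlap among other sets of miRs was not computed, so this contrast was not tested. The miRs with the seed AAUACUG had from 92.4 to 115 CPM after RPL24 KD and from 90.7 to 110 in NC, with means of 100.1 ± 12.8 (SD, n = 3) and 98.4 ± 9.98 CPM (SD, n = 3). The miRs with the seed AACACUG had 1, 3 and 2 reads after RPL24 KD and 10, 2 and 7 in NC. The summed level of the main seed group thus differed by less than the spread between libraries. Within it miR-200c-3p and miR-200b-3p, neither of them DE, lay on opposite sides. miR-429, which has the same seed and comes from the chromosome 1 cluster, had 6 reads after RPL24 KD and 5 in NC.

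**Figure D4:**
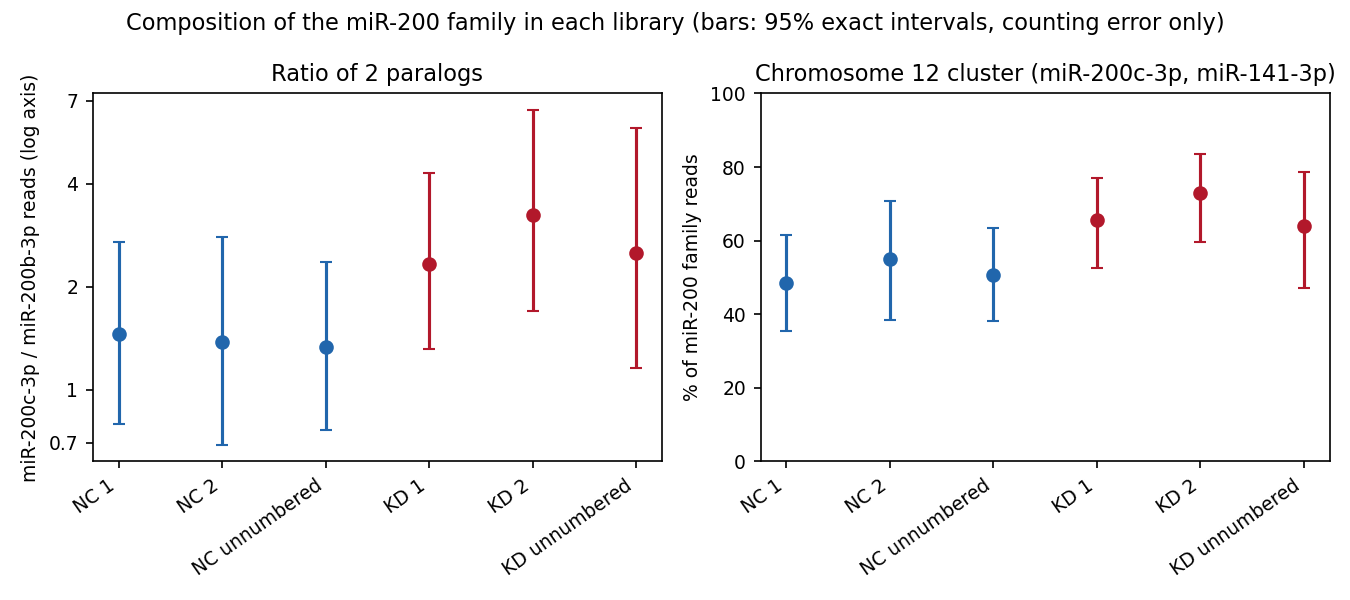
Reads of miR-200c-3p per read of miR-200b-3p (left, log axis) and the percentage of the miR-200 family's reads that came from the chromosome 12 cluster (right) in each NC (blue) and RPL24 KD (red) library, with exact 95% intervals that cover counting error only. The ratio is between 1.33 and 1.45 in NC and between 2.33 and 3.23 after RPL24 KD, and the share between 48.4% and 55.0% and between 64.1% and 72.9%, while the intervals of single libraries overlap.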

How the data were processed

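Small RNA libraries of 3 RPL24 KD and 3 NC samples were analysed. After Flexbar trimming and miRExpress alignment to miRBase, the authors deposited raw read counts per mature miR and library, without normalization. DESeq2 was their test. Here, counts were tested with edgeR 4.0.16 in R 4.3.3 (default quasi-likelihood fit, TMM, filterByExpr with a minimum count of 10, no replicate block) over all miRs that passed, adjusted by Benjamini-Hochberg; DE means an adjusted p under 0.05. Standard errors are those implied by the F statistic. CPM are TMM-scaled, and log2 CPM use a prior count of 2. DESeq2 1.42.0, other scalings, no filter, a robust fit, the replicate number as a block and leaving out each library were alternatives. The tests were checked on simulated counts of all miRs together, not at the read counts of the members in particular. The members and the lists of epithelial, mesenchymal and other marker miRs were chosen with earlier results of these data known. Of each list, the 3 most abundant miRs and those called are named. Genes came from GENCODE 29 and sequences from RefSeq.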

Additional observations from a re-analysis of the deposited data

How the results depend on the processing

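The number of members called was 0 in every fit. Both tested members had the same sign of log2 fold change in 9 alternative fits, from -0.64 to -0.45 for miR-200b-3p and from 0.29 to 0.47 for miR-200c-3p, and in the 6 fits without one library, from -0.79 to -0.43 and from 0.27 to 0.42. At an unadjusted p under 0.05 stood 1 member with total counts, 1 without a filter and 1 without RPL24 KD replicate 1, and 0 in the other fits. The number of DE miRs over the whole table, 21, was 32 with total counts (11 higher and 21 lower), 51 with the replicate block and 32 with robust edgeR. Leaving out a library gave from 5 to 32: 6 without RPL24 KD replicate 1, 5 without replicate 2, 12 without the unnumbered RPL24 KD library and 32 without the unnumbered NC library. The cause was not tested. The log2 difference of the ratio of miR-200c-3p to miR-200b-3p, 0.94, was from 0.80 to 1.04 without one library. Near 0, the log2 fold change of miR-221-3p turned to 0.00013 without a filter, 0.0053 with DESeq2 on every miR with a read, 0.0018 with the replicate block and 0.0022 in the numbered libraries alone, and ranged from -0.020 to 0.018 without one library. That of miR-222-3p turned to -0.034 with total counts, -0.058 with the replicate block and -0.057 in the numbered libraries alone, and ranged from -0.054 to 0.11 without one library, and that of miR-9-5p turned to -0.015 with total counts. With the replicate block, miR-182-5p, miR-183-5p, miR-96-5p, miR-192-5p and miR-10b-5p were DE. The newer fit of edgeR (added after seeing the data) called 18, and DESeq2 14 on the tested miRs. The replicate block used the 4 numbered libraries, which gave 28 DE miRs without it (added). Deviations of same-numbered libraries had a correlation of -0.03 across the 360 miRs within those 4 libraries, and of -0.14 for number 1 and 0.10 for number 2 against the means of all 3 libraries. No label says that a number marks a shared culture or day, and with only 2 numbers in common the pairing remains unsettled. The 20 mean levels of members under the other scalings moved by less than 1 SD. Depth limits the 4 members under the filter. All RPL24 KD libraries of miR-200a-3p lay under the 3-read floor, so its fold change is uncertain as well. The levels of miR-429, miR-141-3p and miR-205-5p are too near 0 for a usable fold change.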
